A study of Mus musculus with 12 samples.

Results

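Collagens of the basement membrane, of beaded filaments and of fibril surfaces were followed in the mouse preosteoblast line MC3T3-E1 during its differentiation towards bone in the presence or absence of interferon beta (IFN) of the mouse. The set holds 10 genes taken by symbol (Col4a1, Col4a2, Col6a1, Col6a2, Col6a3, Col8a1, Col12a1, Col14a1, Col15a1 and Col18a1) out of 55291 symbols in the count table. All 10 were among the 17289 genes with enough counts to be tested. The groups were IFN and control cells at day 0, at day 14 and at day 21, and each of these 6 groups had 2 libraries. All cells were WT, day 0 was 2 days after confluence, and the IFN arm received 50 mg/L from the start of differentiation according to the labels. Whether IFN cells had met interferon by day 0 is not stated. Nor do the labels say that the replicates were separate cultures, so p-values measure the spread between these libraries, which may be technical.

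Collagen IV chains assemble into the sheet that underlies every basement membrane, and the chains encoded by Col4a1 and Col4a2 join in the same triple helix. Collagen VI chains form heterotrimers that line up as beaded filaments around cells, collagen VIII is a short-chain network former, and collagens XII and XIV sit on the surface of fibrils made by collagens I, III and V. Collagens XV and XVIII carry glycosaminoglycan chains, lie in and beside basement membranes, and release the fragments known as restin and endostatin. In bone the bulk of the matrix is fibrillar collagen I, with collagens VI and XII around the cells and between the fibrils.

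Library totals ran from 29772425 to 38908453 counts, and the 10 collagens held between 0.505% and 1.03% of each. A check list of 10 interferon-stimulated genes summed to 4814 and 4884 CPM (counts scaled by TMM library size) in the IFN libraries of day 14 and to 2932 and 3032 CPM in those of day 21. It summed to 110 to 128 CPM in the IFN libraries of day 0 and to 54 to 157 CPM in the control libraries. Of the osteoblast markers, Runx2, a transcription factor of the lineage, had 2463 to 4275 counts in every library, whereas Alpl (alkaline phosphatase) and Bglap (osteocalcin) had at most 810 and 186 counts. Markers of other lineages were mixed. Cdh5 (endothelial) had at most 10 counts, Ptprc (leukocyte) at most 4 and Epcam (epithelial) at most 1. Of the same lists, Vwf (endothelial) had 34 to 1945 counts, Lyz2 and Cd68 (macrophage) 190 to 1353 and 49 to 362, and Krt14 (epithelial) 24 to 289, with no library at 0. Counts of Sox9 and Col2a1 (chondrocyte) were 3447 to 11200 and 163 to 1612, whereas Acan of that list had at most 7. Pdgfra (tendon and fibroblast) had 5680 to 15207 and Tnmd at most 2. Fabp4 (adipocyte) had 28 to 1451 and Adipoq at most 8, and Des (muscle) had 123 to 409 and Myod1 at most 4. All 7 endothelial markers, of a cell type rich in several of these collagens, summed to 29.6 and 32.1 CPM in IFN libraries of day 14 and to 16.7 and 61.2 CPM in control libraries. The replicates of the IFN arm lay closer together, with a median SD of log2 CPM between 0.084 and 0.111 per group, against 0.237 to 0.44 in the control groups. Control day 21 replicate 2 stood apart, with 61266 CPM summed over endoplasmic reticulum stress genes against 3141 to 6079 CPM in the other libraries. Control day 14 replicate 1 had 8787 CPM of hypoxia genes against 2197 CPM in control day 14 replicate 2, and control day 0 replicate 1 was lower than replicate 2 for 8 of the 10 collagens by 1.27-fold or more.

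Levels of different genes were compared as CPM per kilobase of exon. At day 14 in IFN cells Col6a3 led at 217 ± 2.17 CPM per kb (SD, n = 2), followed by Col6a1 at 117 ± 9.45, Col4a1 at 58.7 ± 0.645 and Col4a2 at 49.1 ± 0.512. In control cells of day 14 the order was Col6a1 at 349 ± 37.5 CPM per kb (SD, n = 2), Col6a3 at 248 ± 28.6, Col12a1 at 212 ± 16 and Col6a2 at 114 ± 32.5. Col12a1 was at 38.4 ± 3.79 CPM per kb in IFN cells, level with Col6a2 at 40.1 ± 3.82. In control cells Col6a3 and Col12a1 differed by less than the sum of their SDs, as did Col4a1, Col4a2 and Col15a1 at 55.5 ± 10.3, 57.6 ± 6.47 and 54.3 ± 13.9 CPM per kb. Col8a1 and Col18a1 were lower, at 5.71 ± 0.338 and 4.66 ± 0.427 CPM per kb in IFN cells and 16.2 ± 0.318 and 9.91 ± 0.156 in control cells. Col14a1 was close to absent, at 0.0975 CPM per kb in IFN cells and 0.0605 in control cells. With the longest transcript in place of all exons, Col6a2 at day 14 stood at 68 CPM per kb in IFN cells and 193 in control cells. In IFN cells it was then no longer level with Col12a1, at 50.8 CPM per kb, and lay beside Col4a1 at 66.2 and above Col4a2 at 50.4. The order below Col6a1 in IFN cells therefore depends on the length used.

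**Figure D1:**
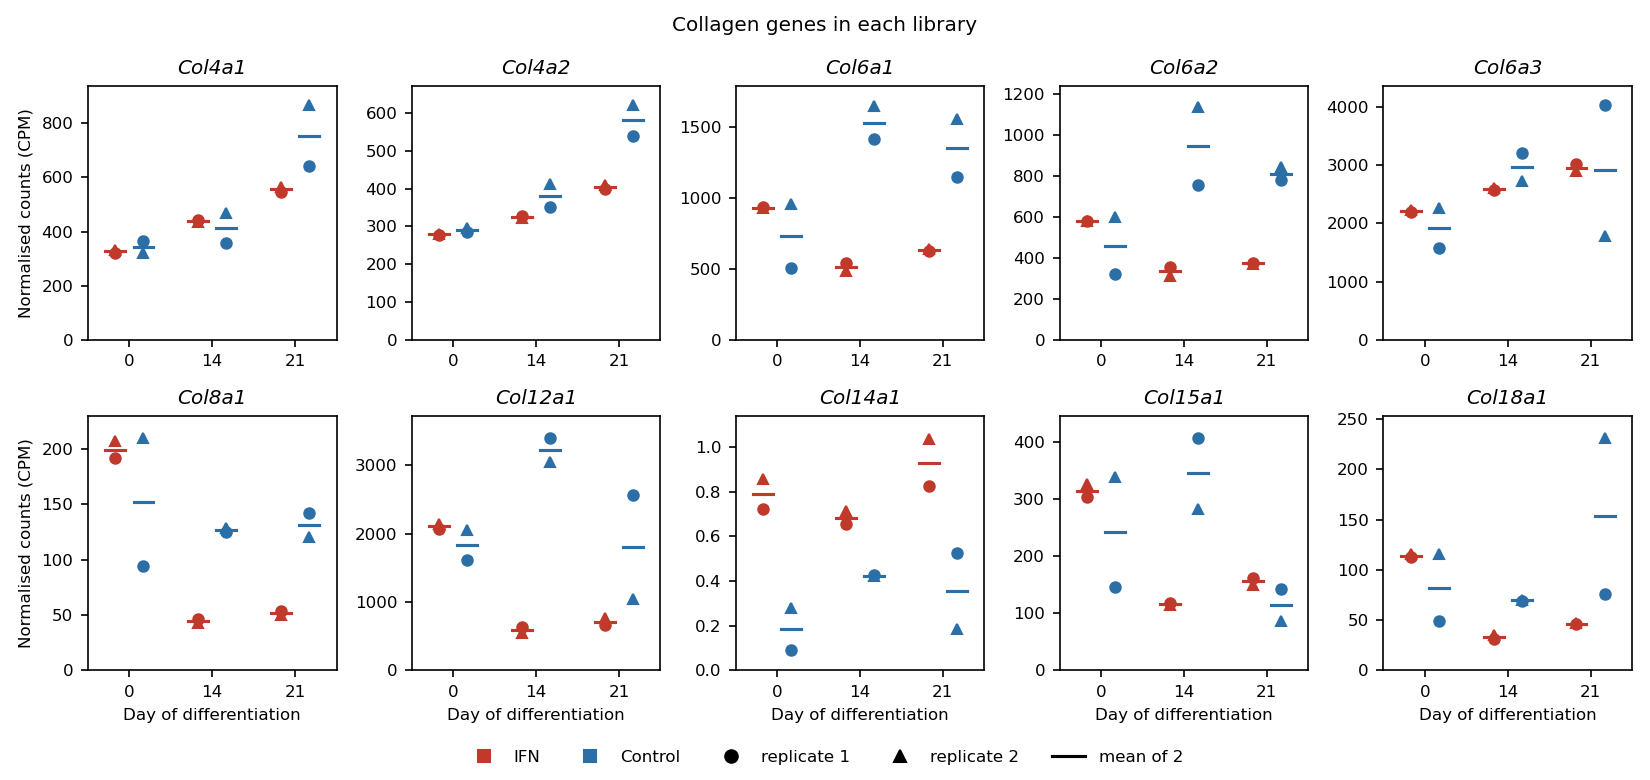
Normalised counts (CPM) of each of the 10 collagen genes by day of differentiation, with IFN libraries in red and control libraries in blue, replicate 1 as circles, replicate 2 as triangles and the mean of 2 as a line. At day 14 the IFN libraries of Col12a1 sit at 544 and 626 CPM, below the control libraries at 3053 and 3398 CPM, while Col4a1 overlaps between the arms.

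At day 14, 4 of the 10 collagens fell with IFN and none rose: Col12a1, Col6a1, Col6a2 and Col8a1, by between 2.84-fold and 5.52-fold. All 4 were called by edgeR's quasi-likelihood test at an adjusted p below 0.05 over all tested genes, a limit that 2.29% of all genes passed and 0.995% passed as lower. Their log2 fold changes were among the lowest 4.4% of all genes tested. In 9 of the 10 collagens the libraries of the arms did not overlap, against 55.7% of all genes, and 8 of those 9 were lower with IFN. The median log2 fold change was -1.30 over the 10 collagens and -0.01 over all genes. In bulk RNA, fewer cells of a type and less RNA per cell cannot be told apart. The count rests on few libraries: it was 2 without control day 14 replicate 1, 1 without control day 14 replicate 2, and 0 without either IFN library of day 14, and 6 without replicate 1 of control day 0 and replicate 2 of control day 21 together, a fit that called 15% of all genes.

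Among the basement membrane chains, Col4a1 had 441 and 435 CPM in IFN libraries of day 14, against 359 and 469 CPM in control libraries. Col4a2 had 327 and 323 CPM in IFN libraries, against 351 and 412 CPM in control libraries. The arms overlapped for Col4a1, whereas for Col4a2 both IFN libraries lay just below both control libraries. Neither was called (edgeR adjusted p = 0.907 and 0.58). Their log2 fold changes were 0.08 ± 0.20 and -0.23 ± 0.16 (SE), and the 95% intervals, from -0.35 to 0.52 for Col4a1 and from -0.58 to 0.12 for Col4a2, leave out a change as large as those of the called collagens. Without control day 14 replicate 1 the value of Col4a1 was -0.10.

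Col4a1 and Col4a2 lie head to head on chromosome 8 (mm10, GENCODE M21): Col4a1 occupies chr8:11198423-11312826 on the minus strand and Col4a2 occupies chr8:11312805-11449287 on the plus strand. Their annotated first exons share 22 bases at chr8:11312805-11312826, shown here on the plus strand (GRCm38.p6, the assembly of the RefSeq windows) because the genes start at its opposite ends and run apart.
Col4a1 and Col4a2 shared exon bases: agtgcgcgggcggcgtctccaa
Reads in these bases cannot be told apart without strand, but they make up at most 0.332% of the exon bases of either gene. The abundance of the pair moved together across the 12 libraries, with Pearson's r of 0.947 for log2 CPM, a description of libraries that share groups and scaling.

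In the beaded filament collagens, Col6a1 had 542 and 484 CPM in IFN libraries of day 14, against 1414 and 1646 CPM in control libraries. Col6a2 had 357 and 312 CPM in IFN libraries, against 757 and 1140 CPM in control libraries. In both genes the arms were far apart, the nearest control library lying above each IFN library. Col6a1 was 2.98-fold lower with IFN (log2 fold change -1.58 ± 0.28, edgeR adjusted p = 0.018) and Col6a2 was 2.84-fold lower (-1.51 ± 0.29, edgeR adjusted p = 0.0234).

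Col6a3 encodes the largest chain of the collagen VI heterotrimer, which assembles with the Col6a1 and Col6a2 chains. It had 2572 and 2609 CPM in IFN libraries of day 14, against 3207 and 2723 CPM in control libraries. The IFN libraries lay below the control libraries by a narrow margin. The log2 fold change was -0.19 ± 0.33 (95% interval -0.92 to 0.53, edgeR adjusted p = 0.858). The fitted falls of Col6a1 and Col6a2 lie beyond this interval, but they carry errors of their own. The 95% interval of Col6a2, from -2.14 to -0.87, overlaps it, and that of Col6a1, from -2.20 to -0.95, ends just short of it.

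Because chains of the same library share depth and scaling, their raw counts were also set as ratios, an analysis added after values were seen. The ratio of Col6a3 to Col6a1 was 4.74 and 5.39 in IFN libraries of day 14, against 2.27 and 1.65 in control libraries. At day 21 it was 4.80 and 4.54 in IFN libraries, against 3.52 and 1.15 in control libraries. At day 0 it was 2.34 and 2.40 in IFN libraries, against 3.13 and 2.36 in control libraries.

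Every IFN library of days 14 and 21 therefore carried more Col6a3 per Col6a1 than every control library of any day. The mean difference over days 14 and 21 was 1.30 on the log2 scale, between 0.90 and 1.70 as each of the 8 libraries was left out. An exact permutation test of arm within day (two-sided) gave p = 0.0556, the smallest that its 36 arrangements can give, and 0.222 after Benjamini-Hochberg adjustment over the 4 ratios computed. The ratio of Col6a2 to Col6a1 was 0.657 and 0.644 in IFN libraries of day 14, against 0.535 and 0.692 in control libraries, and the IFN libraries fell between the control libraries (mean log2 difference over both days 0.03, exact permutation p = 0.778). Col4a2 to Col4a1 was 0.741 and 0.742 in IFN libraries of day 14, against 0.977 and 0.879 in control libraries, with a mean log2 difference over both days of -0.21 (exact permutation p = 0.167).

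**Figure D2:**
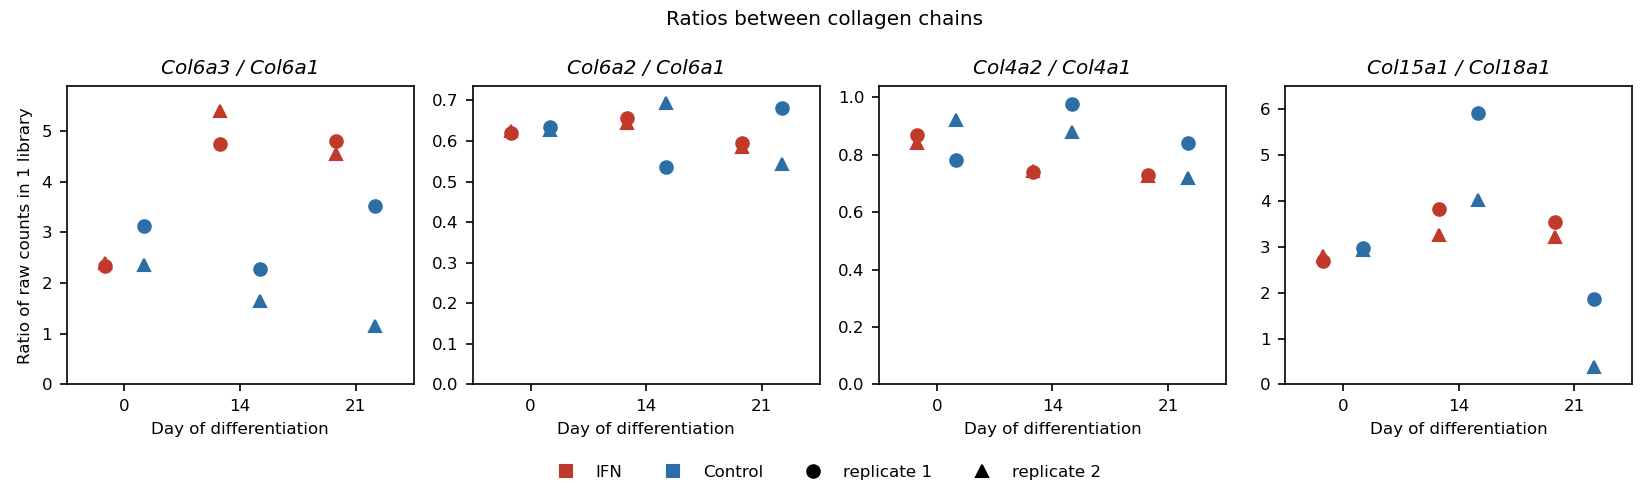
Ratio of raw counts of 2 collagen genes within each library, by day of differentiation, with IFN in red left of control in blue, replicate 1 as circles and replicate 2 as triangles. The ratio of Col6a3 to Col6a1 is 4.54 to 5.39 in the IFN libraries of days 14 and 21 and at most 3.52 in the control libraries, while Col6a2 to Col6a1 stays between 0.535 and 0.692 throughout.

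Col6a1 and Col6a2 are neighbours on the minus strand of chromosome 10 (Col6a1 at chr10:76708792-76726168, Col6a2 at chr10:76595762-76623630), whereas Col6a3 lies alone at chr1:90765923-90843971 on the minus strand. The bases before their annotated first exons are printed to show what stands upstream of the collagen VI chains that were called and of the chain that was not, with Col8a1 as a further gene that fell. They come from RefSeq promoter windows (GRCm38.p6, minus strand, read 5′ to 3′), each 300 bases long in full, of which 10 matched 8 of the 10 collagens. Col12a1 and Col14a1 had no window. Col6a1 is chr10:76726169-76726294, Col6a2 is chr10:76623631-76623880, Col6a3 is chr1:90843972-90844221 and Col8a1 is chr16:57754738-57754987. Capitals mark motif matches on either strand: CCGCCC is the GC box read backwards and TGTGGT the RUNX motif read backwards.
Col6a1: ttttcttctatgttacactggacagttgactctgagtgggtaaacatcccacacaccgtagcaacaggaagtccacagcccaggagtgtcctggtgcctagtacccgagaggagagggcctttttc
Col6a2: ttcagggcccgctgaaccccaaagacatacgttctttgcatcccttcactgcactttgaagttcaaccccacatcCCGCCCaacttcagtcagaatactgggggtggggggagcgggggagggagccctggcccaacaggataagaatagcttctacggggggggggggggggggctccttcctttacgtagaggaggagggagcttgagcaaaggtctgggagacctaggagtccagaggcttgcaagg
Col6a3: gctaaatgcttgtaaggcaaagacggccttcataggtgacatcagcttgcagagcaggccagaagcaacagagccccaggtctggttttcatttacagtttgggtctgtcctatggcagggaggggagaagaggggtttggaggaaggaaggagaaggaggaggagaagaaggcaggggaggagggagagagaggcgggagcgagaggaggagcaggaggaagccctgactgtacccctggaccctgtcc
Col8a1: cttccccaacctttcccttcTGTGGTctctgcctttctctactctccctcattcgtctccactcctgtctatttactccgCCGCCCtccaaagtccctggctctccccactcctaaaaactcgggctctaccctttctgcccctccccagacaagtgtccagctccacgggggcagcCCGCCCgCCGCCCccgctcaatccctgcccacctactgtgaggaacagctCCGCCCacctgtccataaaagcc

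A set of 8 motifs were searched on both strands of the full windows, and a match is a description of letters. The interferon-related motifs TTCNNNGAA (GAS, in 8.3% of 32851 mouse windows) and AAANNGAAA (ISRE core, 10.6%) matched none of the 10 windows, and neither did TATAAA (13.6%) or ACAAT (SOX, 31%). GGGCGG (GC box, 35.7%) matched 4 times in the Col8a1 window and not in those of Col6a1, Col6a3 and Col15a1. TGACTCA (AP-1, 5.2%) matched 1 window, that of Col6a1, at 90 bases before the start site and inside an annotated exon. ACCACA (RUNX, 16.8%) matched in Col8a1 and in an internal Col18a1 window, and CCAAT (37.4%) in Col4a1, Col4a2 and Col18a1. No motif was present in the windows of all 3 collagens called at day 14 that have one (Col6a1, Col6a2 and Col8a1).

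Col8a1, whose product forms hexagonal networks beneath endothelia and in growing vessels and is made at low level here, had 46.6 and 42.8 CPM in IFN libraries of day 14, against 125 and 129 CPM in control libraries. The replicates of each arm nearly coincided. It was 2.84-fold lower with IFN (log2 fold change -1.51 ± 0.30, edgeR adjusted p = 0.0264).

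Col12a1 encodes collagen XII, which bridges neighbouring collagen I fibrils, and it had the largest change of the 10 genes. Its level was 626 and 544 CPM in IFN libraries of day 14, against 3398 and 3053 CPM in control libraries. The highest IFN library lay far below the lowest control library. Col12a1 was 5.52-fold lower with IFN (log2 fold change -2.46 ± 0.36, 95% interval -3.25 to -1.67, edgeR adjusted p = 0.00453) and lay at the 1.5th percentile of fold changes over all genes. It was called in 10 of the 12 fits that left out a library, the exceptions being those without an IFN library of day 14 (highest adjusted p = 0.0842). Col14a1, the related fibril-associated collagen of dense connective tissue, had 24 and 22 raw counts in IFN libraries, against 14 and 14 in control libraries. With so few counts its interval was wide (log2 fold change 0.68, 95% interval -0.76 to 2.12).

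Of the basement membrane zone collagens with glycosaminoglycan chains, Col15a1 had 117 and 114 CPM in IFN libraries of day 14, against 407 and 282 CPM in control libraries. Col18a1 had 30.6 and 34.9 CPM in IFN libraries, against 68.8 and 70.3 CPM in control libraries. Neither overlapped between the arms, yet both missed the limit: Col15a1 at a log2 fold change of -1.58 ± 0.36 (edgeR adjusted p = 0.0533) and Col18a1 at -1.09 ± 0.46 (adjusted p = 0.326). Col15a1 was called with RLE scaling, DESeq2, limma voom with library weights, no low-count filter and only the groups compared. These fits called 2.39%, 5.77%, 9.53%, 3.46% and 4.27% of all genes. It was not called with library size alone, a filter of 1 CPM in 2 libraries or a replicate block. Col18a1 was called with voom weights, no low-count filter and only the groups compared, and with no other setting named here. With libraries left out in turn, the log2 fold change ranged from -1.82 to -1.29 for Col15a1 and from -1.20 to -1.02 for Col18a1. The ratio of Col15a1 to Col18a1 was 3.82 and 3.26 in IFN libraries of day 14, against 5.91 and 4.01 in control libraries. At day 21 it was 3.53 and 3.21 in IFN libraries, against 1.87 and 0.371 in control libraries. The arms thus differed in opposite directions on these days, by -0.46 and 2.02 on the log2 scale. The mean log2 difference over both was 0.78 (exact permutation p = 0.5), and 0.19 without control day 21 replicate 2. Because this test averages the days, it cannot address differences that oppose each other.

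Other gene lists moved with the day 14 contrast, in which edgeR called 1.3% of all genes higher and 0.995% lower. The hypoxia genes had a median log2 fold change of -2.37 with IFN, and 1 of 11 tested was called (Egln3, -3.32 ± 0.63, adjusted p = 0.023). Control day 14 replicate 1 had the highest hypoxia sum, at 8787 CPM. Control day 14 replicate 2, at 2197 CPM, was about level with the IFN libraries of day 14, at 2184 and 2039 CPM. The fall of the list with IFN therefore rests largely on 1 control library. As each of the 12 libraries was left out in turn, the log2 fold change at day 14 ranged from -1.68 to -1.46 for Col6a1 and from -1.59 to -1.46 for Col8a1. It ranged from -1.77 to -1.18 for Col6a2 and from -2.59 to -2.38 for Col12a1. The osteoblast list, led by Col1a1, Postn and Sparc, summed to 4483 and 4557 CPM in IFN libraries of day 14 and to 12837 and 14203 CPM in control libraries, with 4 of 10 genes called lower (Ibsp, Col1a1, Sparc and Dlx5), of which Col1a1 and Sparc also belong to the matrix lists described further on. The part of the hypoxia and osteoblast genes in the result was not tested.

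**Figure D3:**
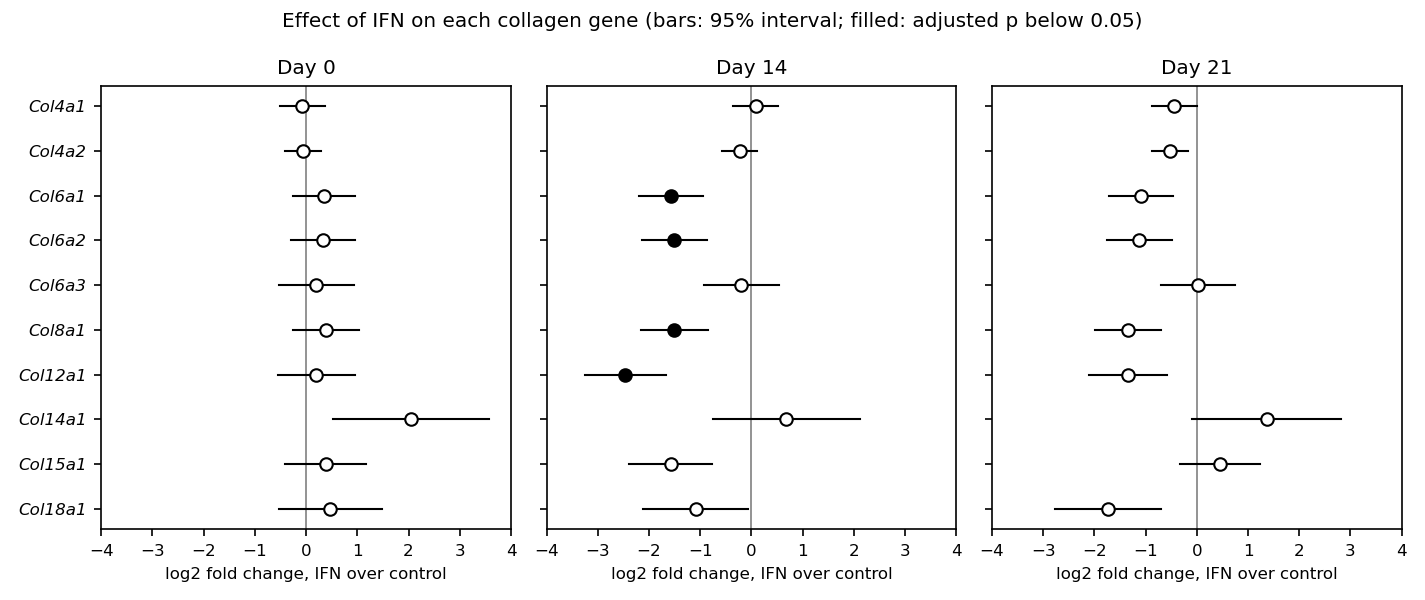
Log2 fold change of IFN over control for each collagen gene at day 0, day 14 and day 21 from the edgeR fit, with 95% intervals as bars and filled points for an adjusted p below 0.05. Filled points appear at day 14, for Col6a1, Col6a2, Col8a1 and Col12a1, and at neither of the other days.

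At day 21, 0 of the 10 collagens were called by edgeR, against 0.995% of all genes, and 7 had an unadjusted p below 0.05, against 13.1% of all genes. DESeq2 called 6, all lower with IFN (Col4a2, Col6a1, Col6a2, Col8a1, Col12a1 and Col18a1), against 3.67% of all genes, and limma voom with library weights called 0. The libraries of the arms did not overlap in 9 of the 10 (7 lower and 2 higher with IFN), against 39.3% of all genes. The median log2 fold change was -0.81 over the 10 collagens and -0.01 over all genes.

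Col8a1 had 53.2 and 50.3 CPM in IFN libraries of day 21, against 142 and 120.4 CPM in control libraries (log2 fold change -1.34 ± 0.29, edgeR adjusted p = 0.0728). For Col6a1 the IFN libraries had 628 and 638 CPM, against 1145 and 1558 CPM in control libraries (-1.09 ± 0.28, edgeR adjusted p = 0.137). For Col6a2 they had 374 and 373 CPM, against 779 and 845 CPM in control libraries (-1.12 ± 0.29, edgeR adjusted p = 0.134). The IFN libraries of these 3 genes were as tight as at day 14, and every one was below every control library.

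For Col12a1, Col18a1 and Col6a3 the control libraries of day 21 lay more than 2-fold apart. Col12a1 had 659 and 756 CPM in IFN libraries, against 2566 and 1042 CPM in control libraries (log2 fold change -1.35 ± 0.34, edgeR adjusted p = 0.135). Col18a1, the source of endostatin, had 45.8 and 46.5 CPM in IFN libraries, against 75.6 and 231 CPM in control libraries (-1.73 ± 0.47, adjusted p = 0.163). Col6a3 had 3018 and 2897 CPM in IFN libraries, against 4027 and 1788 CPM in control libraries, so that the IFN libraries lay between the control libraries. Its log2 fold change was 0.02 ± 0.33. Control replicate 2, the library high in endoplasmic reticulum stress genes, was the lower of its pair for Col12a1 and Col6a3 and the higher for Col18a1.

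Col4a1 had 547 and 565 CPM in IFN libraries of day 21, against 641 and 866 CPM in control libraries (log2 fold change -0.44 ± 0.20, edgeR adjusted p = 0.377). Col4a2 had 398 and 410.1 CPM in IFN libraries, against 539.6 and 623 CPM in control libraries (-0.52 ± 0.16, edgeR adjusted p = 0.205). Both lay below the control libraries in each IFN library, unlike Col4a1 at day 14. Col15a1 stood on the other side: it had 162 and 149 CPM in IFN libraries, against 141 and 85.6 CPM in control libraries (0.46 ± 0.36, adjusted p = 0.621). Col14a1 had 29 and 36 raw counts in IFN libraries, against 18 and 5 in control libraries (1.36 ± 0.66, adjusted p = 0.411).

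The count of called collagens at day 21 was 7 without control day 21 replicate 1 (6 lower and Col6a3 higher with IFN), in a fit that called 20.5% of all genes. It was 1 without control day 21 replicate 2 (Col12a1, lower; 0.961% of all genes) and 3 without either control library of day 0 (1.22% of all genes). It was 6, all lower, without replicate 1 of control day 0 and replicate 2 of control day 21 together (4.73% of all genes). Col6a3 was called in opposite directions by these choices: its log2 fold change was 0.74 without control day 21 replicate 1 (edgeR adjusted p = 0.0284) and -0.46 without the 2 libraries together (adjusted p = 0.0436).

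At day 0, 0 of the 10 collagens were called between the arms by edgeR, DESeq2 or limma voom with library weights, and 1 had an unadjusted p below 0.05 (2.2% of all genes); edgeR called 0.00578% of all genes. That 1 was Col14a1, with 24 and 31 raw counts in IFN libraries against 3 and 11 in control libraries (log2 fold change 2.05 ± 0.69, edgeR adjusted p = 0.997). The abundant Col12a1 had 2070 and 2142 CPM in IFN libraries, against 1614 and 2058 CPM in control libraries. Col6a1 had 937 and 926 CPM in IFN libraries, against 504 and 959 CPM in control libraries. In Col6a1, Col6a2, Col6a3, Col8a1, Col15a1 and Col18a1 the spread came from control day 0 replicate 1, which was the lowest library, while control day 0 replicate 2 lay near the IFN libraries.

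Over time in the IFN arm, 4 collagens fell at day 14 relative to day 0 and none rose. These were Col8a1, Col12a1, Col15a1 and Col18a1, against 10.7% of all genes called by edgeR in either direction and 5.56% called lower. Col8a1 had 46.6 and 42.8 CPM in IFN libraries of day 14, against 192 and 207 CPM in IFN libraries of day 0, and was 4.46-fold lower (log2 fold change -2.16 ± 0.30, edgeR adjusted p = 0.00167). Col12a1 had 626 and 544 CPM at day 14, against 2070 and 2142 CPM at day 0 (-1.85 ± 0.35, edgeR adjusted p = 0.00839). The libraries of the days did not overlap for either gene, as for 74.4% of all genes.

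Col15a1 had 117 and 114 CPM in IFN libraries of day 14, against 303 and 325 CPM at day 0 (log2 fold change -1.44 ± 0.36, edgeR adjusted p = 0.03). Col18a1 had 30.6 and 34.9 CPM at day 14, against 112 and 116 CPM at day 0 (-1.80 ± 0.47, edgeR adjusted p = 0.0356). The collagen VI pair Col6a1 and Col6a2 had lower values too, -0.86 ± 0.28 (edgeR adjusted p = 0.0778) and -0.80 ± 0.28 (edgeR adjusted p = 0.103), and Col6a3 was at 0.23 ± 0.33. A fit of the IFN groups alone called 9 of the 10, 3 higher and 6 lower, and 58.7% of all genes. Without any 1 of the 4 libraries compared, 1 collagen was called, with 2.47% to 2.54% of all genes. Without replicate 1 of control day 0 and replicate 2 of control day 21 together, 7 were called, with 31.3% of all genes. Col8a1 was called in all 12 fits that left out 1 library.

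From day 14 to day 21 in the IFN arm, 0 of 10 collagens were called by edgeR and 0 had an unadjusted p below 0.05, against 0% of all genes called. DESeq2 called 0, limma voom with library weights called 2 (16% of all genes) and a fit of the IFN groups alone called 8 (28.9% of all genes), all higher at day 21. Fold changes were small and positive for all 10 genes, between 0.16 on the log2 scale for Col6a2 and 0.50 for Col18a1.

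Over the same days in control cells, 0 collagens were called by edgeR at day 14 relative to day 0 (2.38% of all genes) and 4 had an unadjusted p below 0.05 (16.3% of all genes). DESeq2 and limma voom with library weights called 2 each (7.19% and 2.15% of all genes). Col6a1 was at 1414 and 1646 CPM in control libraries of day 14, against 504 and 959 CPM at day 0 (log2 fold change 1.07 ± 0.28, edgeR adjusted p = 0.0826). Col6a2 was at 757 and 1140 CPM at day 14, against 320 and 601 CPM at day 0 (1.04 ± 0.29, edgeR adjusted p = 0.0916). Col12a1 was at 3398 and 3053 CPM at day 14, against 1614 and 2058 CPM at day 0 (0.81 ± 0.34, edgeR adjusted p = 0.265). These 3 genes were higher in every day 14 library than in any day 0 library of the control arm, as were 21.4% of all genes, without passing the limit. Without control day 21 replicate 1 or replicate 2 the count was 4, all higher (8.19% and 8.35% of all genes). Without control day 0 replicate 2 it was 2 (2.52% of all genes), and without replicate 1 of control day 0 and replicate 2 of control day 21 together it was 5, with 3 higher and 2 lower (10.2% of all genes).

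From day 14 to day 21 in control cells, 0 collagens were called by edgeR (0.0289% of all genes) and 5 had an unadjusted p below 0.05 (17.8% of all genes). DESeq2 called 3 (4.88% of all genes) and limma voom with library weights called 0. The collagen IV pair was higher at the later day: Col4a1 had 641 and 866 CPM in control libraries of day 21, against 359 and 469 CPM at day 14 (log2 fold change 0.86 ± 0.20, edgeR adjusted p = 0.131). Col4a2 had 539.6 and 623 CPM at day 21, against 351 and 412 CPM at day 14 (0.61 ± 0.16, edgeR adjusted p = 0.148). Col15a1 went the other way, with 141 and 85.6 CPM at day 21, against 407 and 282 CPM at day 14 (-1.60 ± 0.36, edgeR adjusted p = 0.13). Without control day 21 replicate 1, 6 were called, 3 higher and 3 lower (25.3% of all genes). Without replicate 1 of control day 0 and replicate 2 of control day 21 together, 3 were called, 2 higher and 1 lower (3.9% of all genes).

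The change of the IFN effect between days was tested as an interaction. Of the 10 collagens, 1 was called for day 14 relative to day 0, against 0.596% of all genes: Col12a1, whose log2 fold change with IFN was -2.46 at day 14 and 0.20 at day 0, a difference of -2.66 ± 0.49 (edgeR adjusted p = 0.0451). Col6a1, Col6a2 and Col8a1 had differences of -1.93 ± 0.40, -1.84 ± 0.40 and -1.90 ± 0.41 that missed the limit (edgeR adjusted p = 0.0754, 0.0953 and 0.0952). Col4a1 and Col4a2 differed by 0.15 ± 0.28 and -0.18 ± 0.22. The call for Col12a1 was lost in 9 of the 12 fits that left out a library and with library size alone or a replicate block; it held without control day 0 replicate 2 and without either control library of day 21. Without replicate 1 of control day 0 and replicate 2 of control day 21 together, 6 collagens were called (3.27% of all genes). For day 21 relative to day 14, 0 were called by edgeR (0% of all genes) and 2 had an unadjusted p below 0.05 (7.61% of all genes). DESeq2 called 1 (0.179% of all genes) and limma voom with library weights 0. The widest such difference was in Col15a1, at 2.03 ± 0.51 (edgeR adjusted p = 0.652), and without control day 21 replicate 1 the count was 3 (13.7% of all genes).

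Related genes were read from lists, against 1.3% of all genes called higher and 0.995% called lower by edgeR at day 14. At day 21 these shares were 0.839% and 0.156%. Laminins, nidogens and other basement membrane partners gave 0 higher and 2 lower of 20 tested at day 14, with a median log2 fold change of -0.39 with IFN. The 2 were Sparc, which encodes a collagen-binding matrix protein (1154 and 1176 CPM in IFN libraries, against 1932 and 2261 CPM in control libraries; -0.85 ± 0.17, edgeR adjusted p = 0.0308), and Smoc1, its relative (-1.83 ± 0.41, edgeR adjusted p = 0.046). Lamb1, Lamc1 and Nid1, whose products link to the collagen IV sheet, were at -0.22 ± 0.28, -0.22 ± 0.15 and -0.35 ± 0.20. Nid2, the other nidogen, Hspg2, which encodes perlecan, and the laminin chain Lamb2 were at -1.51 ± 0.38, -0.94 ± 0.36 and -0.83 ± 0.22 without being called (edgeR adjusted p = 0.0757, 0.261 and 0.1). At day 21, 1 was higher and 1 lower: Agrn, a heparan sulfate proteoglycan of basement membranes, had 297 and 277 CPM in IFN libraries against 78 and 48 CPM in control libraries (2.19 ± 0.31, edgeR adjusted p = 0.00707), and Sparc was at -1.26 ± 0.17 (edgeR adjusted p = 0.00602).

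Fibril-forming collagens, the partners on which collagen XII sits, gave 0 higher and 5 lower of 11 at day 14 (median log2 fold change -1.52), against 0.995% of all genes called lower. At day 21 they gave 0 higher and 3 lower (median -1.62), against 0.156% of all genes called lower. Those with the smallest adjusted p at day 14 were Col5a2 at -1.48 ± 0.22 (edgeR adjusted p = 0.00481), Col11a1 at -2.28 ± 0.36 (edgeR adjusted p = 0.00853) and Col5a1 at -1.51 ± 0.28 (edgeR adjusted p = 0.0194). At day 21 they were Col5a2 at -1.62 ± 0.22 (edgeR adjusted p = 0.00523), Col1a1 at -2.65 ± 0.43 (edgeR adjusted p = 0.0157) and Col5a1 at -1.64 ± 0.28 (edgeR adjusted p = 0.02). The remaining non-fibrillar collagens, some of them of the same families as the 10 described, gave 0 calls of 14 tested at day 14 and at day 21, with medians of 0.00 and 0.06. These medians give each gene equal weight. Over all 23 genes listed, the sum was 392.2 and 364.9 CPM in IFN libraries of day 14, against 934.1 and 687.1 CPM in control libraries. Among them Col8a2, the partner chain of Col8a1, was at -1.49 ± 0.38 at day 14 (edgeR adjusted p = 0.0823). Col16a1, Col4a6 and Col4a5 were at -1.30 ± 0.48, -0.84 ± 0.33 and -0.56 ± 0.28 on that day. Col9a3 and Col28a1 were at 1.38 ± 0.36 and 1.63 ± 0.65, and Col10a1 was imprecise, at 4.04 ± 2.90.

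Collagen biosynthesis genes gave 0 higher and 1 lower of 17 at day 14, the prolyl hydroxylase subunit P4ha3 (-1.12 ± 0.23, edgeR adjusted p = 0.0291), and 0 at day 21. Their median log2 fold change at day 14 was -0.43. Plod2 and Plod1 were at -1.79 ± 0.42 and -1.63 ± 0.43 without being called (edgeR adjusted p = 0.0553 and 0.0934), and Plod3 was at 0.11 ± 0.17. Serpinh1, the collagen chaperone, was at -0.11 ± 0.44 at day 14 and -1.71 ± 0.45 at day 21 (adjusted p = 0.147), where control replicate 2 carried the stress genes. Collagen receptors gave 0 calls of 16 at either day, with a median of -0.30 at day 14. On that day Itga11 and Dag1 were at -1.34 ± 0.34 and -1.11 ± 0.30 (edgeR adjusted p = 0.0762 and 0.0974). Itga1 was at -1.39 ± 0.57, Ddr2 at -0.14 ± 0.27 and Itga6 at 0.27 ± 0.63. Over all tested genes the medians were -0.01 at both days, and the calls in these lists were made against the same control libraries as those of the 10 collagens.

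**Figure D4:**
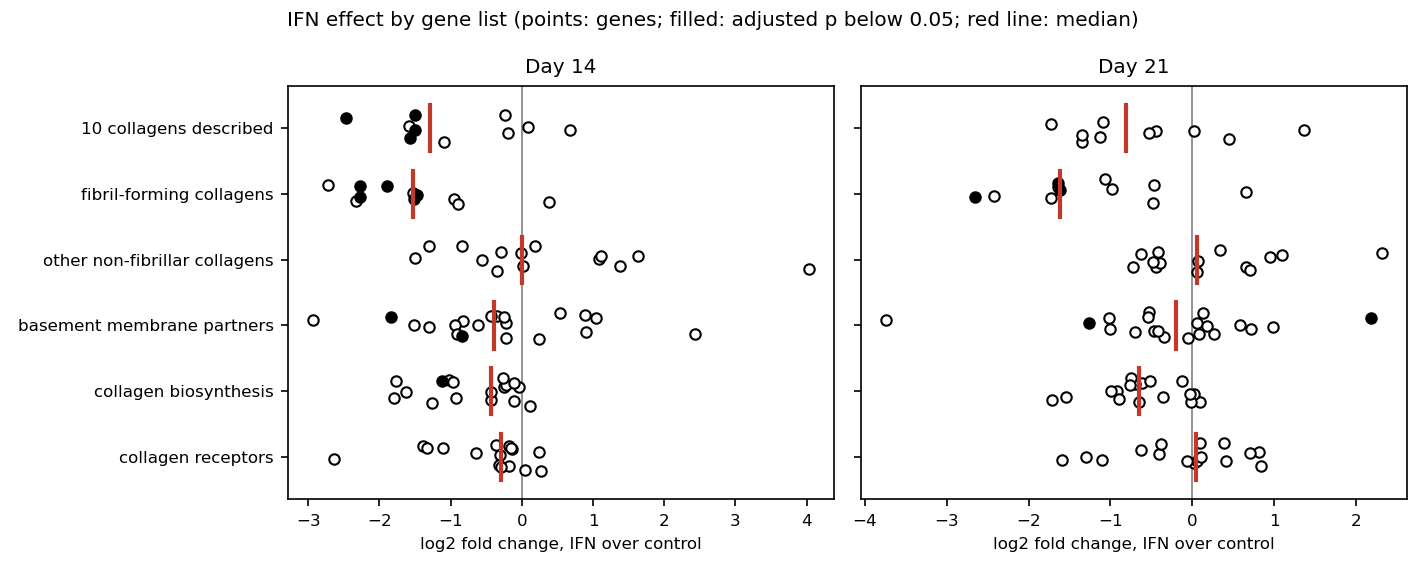
Log2 fold change of IFN over control at day 14 and day 21 for the 10 collagens described and for 5 related gene lists, each point 1 gene, filled for an adjusted p below 0.05 and with the median as a red line. At day 14 the medians are -1.30 for the 10 collagens, -1.52 for fibril-forming collagens and 0.00 for other non-fibrillar collagens, whose genes lie far to either side.

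Patterns among the 10 collagens followed their families only in part. Over the 12 libraries Pearson's r of log2 CPM was 0.983 between Col6a1 and Col6a2 and 0.947 between Col4a1 and Col4a2. Between Col6a3 and the chains Col6a1 and Col6a2 it was 0.153 and 0.186. Col8a1 and Col12a1, of different families, had r of 0.848. Col15a1 and Col18a1, both with glycosaminoglycan chains, had 0.243, and the fibril-associated Col12a1 and Col14a1 had -0.292, with few counts for Col14a1. Col4a1 and Col15a1 ran against each other, with r of -0.734. These values describe 12 libraries in 6 groups that share scaling, and carry no test.

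Genes outside the set with the most similar pattern were sought among 9478 candidates. Closest to the mean of the 10 collagens were Matn2, a matrilin of the extracellular matrix (r = 0.943), Arvcf, a catenin (0.934), and Adamts1, a secreted metalloprotease (0.919). For single genes the closest were Sdc1, a cell surface proteoglycan, for Col6a3 (0.964), the long non-coding RNA Snhg18 for Col12a1 (0.965), Lama4, a laminin chain, for Col18a1 (0.975) and H3f3a, a histone gene, for Col8a1 (0.967). Col4a1 was closest to Prdx1, a peroxiredoxin (0.969), Col4a2 to Uxs1, a UDP-xylose synthase (0.945), and both Col6a1 and Col6a2 to Actr3b, an actin-related protein (0.945 and 0.932). Col15a1 was closest to Lix1l (0.971), and the sparse Col14a1 to Eif4a2, an RNA helicase (0.906).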

How the data were processed

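RNA sequencing of 12 libraries gave a table of raw counts of reads per gene, deposited by the authors. The submitters' processing notes name HISAT2, SAMtools, featureCounts and the build mm10; versions, annotation and use of strand are not given in the sources used here. Of 55291 symbols, 53180 matched 1 gene of GENCODE release M21, the source of positions and exon lengths. The 10 genes, the related lists and the rule for named genes (all 10; up to 3 called genes per list with the smallest adjusted p; genes of most similar pattern with mean log2 CPM of at least 3) were chosen with earlier results of these data known, and named genes that were not called, together with the ratios between chains, after values were seen. Counts were fitted in R 4.3.3 with edgeR 4.0.16: filterByExpr (17289 genes), TMM scaling, 1 mean per group, 6 residual degrees of freedom, robust quasi-likelihood F tests and Benjamini-Hochberg adjustment over all tested genes. Called means an adjusted p below 0.05. Log2 CPM used a prior count of 2. Alternatives were DESeq2 1.42.0, scaling by RLE or by library size alone, limma 3.58.1 voom with library weights, other filters, a replicate block, only the groups compared, and libraries left out. The procedure was tested on simulated data with the same spread for all genes and groups and no outlying library. That test does not cover the uneven spread of these libraries.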

Additional observations from a re-analysis of the deposited data

Results flagged for a closer look

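Col12a1 met the test of a difference between days: its log2 fold change with IFN was -2.46 at day 14 and 0.20 at day 0, and the interaction was -2.66 (edgeR adjusted p = 0.0451). The call was kept in 3 of the 12 fits that left out a library, and was lost with library size alone (adjusted p = 0.091) and with a replicate block (adjusted p = 0.0628).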

How the results depend on the processing

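Among the single-gene values followed under each setting, 433 kept their direction and their side of the limit, 45 gained a call, 41 lost it and 4 changed sign. The day 14 count of 4 ranged from 0 to 5 as each library was left out and kept within 4 to 6 otherwise. The day 21 count of 0 was 6 with DESeq2, 5 without a low-count filter, 6 without replicate 1 of control day 0 and replicate 2 of control day 21 together, and 0 to 7 with libraries left out in turn. With those same changes in that order, control day 14 against day 0 gave 2, 3, 5 and 0 to 4 (and 2 with voom weights), control day 21 against day 14 gave 3, 4, 3 and 0 to 6, and the change of the IFN effect at day 21 against day 14 gave 1, 2, 1 and 0 to 3. The change at day 14 against day 0, 1 in the reported fit, gave 5, 6, 6 and 0 to 5, and 6 with voom weights. It gave 0 with library size alone and 0 with a replicate block. IFN day 14 against day 0, with 4, gave 9 with voom weights (50.5% of all genes), 9 with only the groups compared (58.7%), 7 without those 2 control libraries (31.3%) and 1 to 6 with libraries left out. IFN day 21 against day 14, with 0, gave 2, 8 and 1 in the same order (16%, 28.9% and 4.03% of all genes) and 0 with libraries left out. The share of all genes called moved with these settings too. The causes were not tested. Col4a1 at day 14 ranged from -0.10 to 0.29 on the log2 scale with libraries left out. Col6a3 at day 21 ranged from -0.46 to 0.74, was -0.0017 without IFN day 21 replicate 1 and was -0.46 without the 2 control libraries. The replicate block changed no other count of calls. Deviations of same-numbered libraries from their group means were little correlated (15 correlations from -0.051 to 0.11, of which 2 exceeded 0.1). With 2 libraries per group, these values cannot settle whether same-numbered libraries shared a culture or a batch. Where 1 library remained in a group, its spread was taken from the rest. Depth limits Col14a1, which had 3 to 36 counts per library.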
